A study of Mus musculus with 2 samples.

Results

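In the mouse limb at embryonic day 10.5, 10 genes at the centre of canonical Wnt signalling were described. They were Ctnnb1, which encodes beta-catenin, the 4 Tcf/Lef factor genes Lef1, Tcf7, Tcf7l1 and Tcf7l2, the co-receptor genes Lrp5 and Lrp6, the destruction complex gene Apc, and the feedback genes Axin2 and Nkd1. The 10 were found by Ensembl identifier, without the version, among the 43346 Ensembl gene rows of each library, and each was present in both the gene and the transcript tables.

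The data were total RNA-seq of RNA above 200 nt from limb tissue of strain B6NCrl, in which male and female embryos were pooled. There was 1 group with 2 biological replicates: replicate 1 came from 69 embryos and replicate 2 from 51 embryos, and no treatment or mutation was named. Synthetic spike-in RNAs were added and 10 ng of RNA entered each library. Each library is a pool from a whole tissue, so fewer cells of a type and less RNA per cell cannot be told apart, and pool and library preparation cannot be told apart either. The labels gave no contrast between groups. With 2 libraries a two-sided exact sign-flip test cannot go below p = 0.5, so no p-value is given, and levels are set beside the spread of the libraries.

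In cells without a Wnt signal, beta-catenin is held low by the destruction complex of Axin, Apc, Gsk3 and casein kinase 1 proteins, which marks it for degradation. A Wnt ligand that binds a Frizzled receptor with Lrp5 or Lrp6 stops this, and beta-catenin enters the nucleus and binds the N terminus of Tcf/Lef proteins on DNA. Without beta-catenin, Tcf/Lef proteins recruit corepressors of the Groucho/Tle family. Axin2 and Nkd1 are induced by the pathway and restrain it. In the limb bud the pathway is known for its part in forming the apical ectodermal ridge and for keeping mesenchyme from becoming cartilage.

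Expected counts (estimated reads per gene) totalled 40509328 and 43983028 in replicates 1 and 2, and the 10 genes held 58062 and 72104 of them, between 652 and 42302 each. All 8 limb mesenchyme markers examined reached a TPM of 1 in each library, beside 55.2% of 21474 protein-coding genes. Among them was Prrx1 at a TPM of 141 and 184. TPM is an abundance corrected for transcript length and scaled to a fixed total over all rows. Between replicates 1 and 2 the summed TPM was 815 and 900 for the mesenchyme markers, 276 and 259 for 11 ectoderm and ridge markers, 195 and 420 for 6 cartilage markers, 25.6 and 50.7 for 5 muscle precursor markers and 55.1 and 82.7 for 5 somite markers. It was 144 and 152 for 5 endothelial markers, 8569 and 7520 for 4 blood markers and 14.4 and 17.4 for 4 macrophage markers. The T lymphocyte markers, listed because such cells use Tcf7 and Lef1, were expressed in 0 of 5 cases. Their summed TPM was 0.65 and 1.36, with Ptprc highest at 0.53 and 0.81. Rag1 was next at 0.06 and 0.48, with 11 and 87 counts, so it was higher in replicate 2. Cd3e was listed at 0 and 0.03 and Cd3g at 0.04 and 0.

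All 10 genes were expressed, defined as reaching a TPM of 1 in each library, against 55.2% of 21474 protein-coding genes. Their median TPM was 26.3, beside 21.3 over the expressed protein-coding genes. Their levels covered a wide range, with Ctnnb1 far above the factors it binds and the co-receptor Lrp5 at the bottom.

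**Figure D1:**
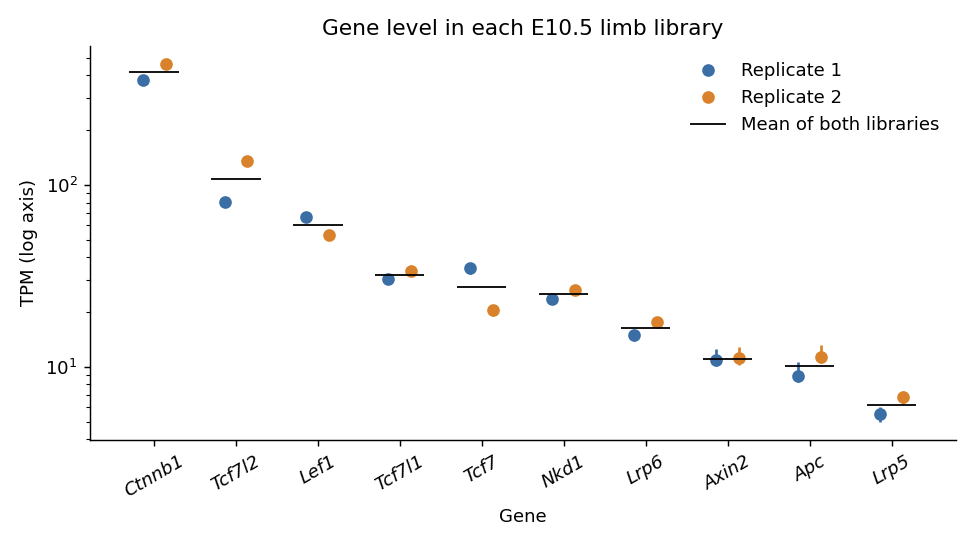
TPM of each gene (log axis) in replicate 1 and replicate 2, with vertical lines for the interval of the authors' tables and a horizontal line for the mean. Ctnnb1 lies at 377 and 463, the 4 Tcf/Lef genes between 20.5 and 136, and Lrp5 at 5.48 and 6.87.

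Ctnnb1 (ENSMUSG00000006932, chr9:120929216-120960507, plus strand, GRCm38) had a TPM of 377 in replicate 1 and 463 in replicate 2, or 420 ± 60.7 (SD, n = 2). This level was above that of 97.3% of expressed protein-coding genes. Jup, which encodes plakoglobin, the close relative of beta-catenin in cell junctions, was at 29.6 and 35.1, so Ctnnb1 was 12.7-fold and 13.2-fold higher. Beta-catenin also links cadherins to alpha-catenin at the membrane, and Ctnna1, the alpha-catenin gene, was at 144 and 163. By the distance of log2(TPM + 1) in the plane of the 2 libraries, the protein-coding genes nearest to Ctnnb1 were Matr3, Ddah2 and Rbm39, at distances of 0.028, 0.041 and 0.049.

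Tcf7l2 (ENSMUSG00000024985, chr19:55741820-55933654, plus strand) was the highest Tcf/Lef gene in both libraries, with a TPM of 80.1 in replicate 1 and 136 in replicate 2 (108 ± 39.4, SD, n = 2). Lef1 (ENSMUSG00000027985, chr3:131110471-131224356, plus strand) followed at 66.9 and 53.3 (60.1 ± 9.65). Tcf7l2 was 1.20-fold above Lef1 in replicate 1 and 2.55-fold above it in replicate 2. At gene level the direction was thus shared and the size was not. These levels include transcripts with no coding sequence, at 26.4 and 46.2 TPM for Tcf7l2 and 5.37 and 3.46 for Lef1. Coding transcripts of the long class, described below, were at 53.4 and 88.6 for Tcf7l2 and at 61.5 and 49.8 for Lef1. By these, Lef1 was the higher in replicate 1 and Tcf7l2 in replicate 2.

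Tcf7l1 (ENSMUSG00000055799, chr6:72626378-72789254, minus strand), whose product acts mainly as a repressor, was at 30.3 and 33.6 (32.0 ± 2.33, SD, n = 2). Tcf7 (ENSMUSG00000000782, chr11:52252371-52283014, minus strand), which encodes the factor also called Tcf1, was at 34.8 and 20.5 (27.6 ± 10.1). Tcf7 was 1.15-fold above Tcf7l1 in replicate 1 and 1.64-fold below it in replicate 2, so these levels had no shared order. Lef1 exceeded Tcf7 by 1.92-fold and 2.60-fold, and Tcf7l2 exceeded Tcf7l1 by 2.64-fold and 4.04-fold.

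Summed over the 4 genes, Tcf/Lef TPM was 212 in replicate 1 and 243 in replicate 2, transcripts with no coding sequence included. Tcf7l2 made up 37.8% and 55.9% of this sum, Lef1 31.5% and 21.9%, Tcf7 16.4% and 8.42%, and Tcf7l1 14.3% and 13.8%. The share of Tcf7l1 was the steadiest (14.1% ± 0.338, SD, n = 2) and that of Tcf7l2 the least steady of the 4 (46.8% ± 12.8).

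**Figure D2:**
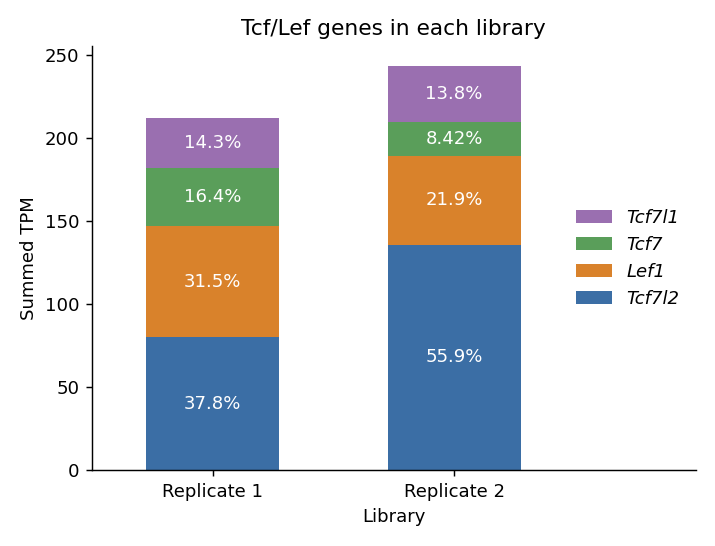
Summed TPM of the 4 Tcf/Lef genes in each library, with each gene's percent of the sum written in its segment. The sum is 212 in replicate 1 and 243 in replicate 2, and the Tcf7l2 segment is 37.8% in the first and 55.9% in the second.

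Of the co-receptors, Lrp6 (ENSMUSG00000030201, chr6:134446476-134566965, minus strand) was at 14.9 and 17.6 (16.3 ± 1.92, SD, n = 2). Lrp5 (ENSMUSG00000024913, chr19:3584828-3686564, minus strand) was at 5.48 and 6.87 (6.17 ± 0.983). Lrp6 was therefore 2.72-fold and 2.56-fold higher, a ratio that differed little between the libraries. Mesd, a chaperone needed to bring Lrp5 and Lrp6 to the cell surface, was at 86.9 and 85.9.

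Apc (ENSMUSG00000005871, chr18:34220924-34322552, plus strand), a scaffold of the destruction complex, had a TPM of 8.95 and 11.3 (10.1 ± 1.67, SD, n = 2). Its relative Apc2 was at 0.74 and 2.45, and Apc was 12.1-fold and 4.62-fold above it. The scaffold gene Axin1 was at 11.9 and 9.68. Neither the pair Apc and Axin1 nor the pair Axin2 and Axin1 had separate intervals in either library.

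The feedback genes were not at the same level. Nkd1 (ENSMUSG00000031661, chr8:88521354-88594884, plus strand), whose product binds Dishevelled, was at 23.6 and 26.5 (25.0 ± 2.07, SD, n = 2). Axin2 (ENSMUSG00000000142, chr11:108920349-108950783, plus strand) was at 10.9 and 11.2 (11.1 ± 0.205). Nkd1 was 2.15-fold and 2.36-fold above Axin2. Nkd2, the other Naked cuticle gene, was at 36.0 and 48.0, which was 1.53-fold and 1.81-fold above Nkd1.

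In all, 8 of 11 gene pairs had intervals that did not overlap and the same direction in both libraries. These intervals are of unstated level and were given for each library on its own. The share among all gene pairs was not counted, so the count describes the listed pairs only. A further condition, a ratio of 2 or more in both libraries, was met by 5. In the order of levels, Tcf7l1 against Tcf7, Tcf7 against Nkd1, and Axin2 against Apc did not differ beyond their spread, and the members of all 3 pairs changed order between the libraries. The other 6 neighbours in the order were separated in both libraries by their intervals and by more than the larger SD.

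The nearest protein-coding genes to Lef1 over the 2 libraries were Etf1, Acvr2b and Rrp1b, at distances of 0.054, 0.058 and 0.059. For Axin2 they were Utp20, Nhej1 and 2510039O18Rik, at 0.012, 0.012 and 0.025. These distances rest on 2 points a gene.

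The libraries were next set against each other after TMM scaling of rounded expected counts, which equalises the bulk of genes. A difference is the log2 of replicate 2 over replicate 1, with an exact binomial 95% interval that covers counting error only. None of the 10 genes was 2-fold higher or lower, where 4.6% of 16860 tested genes were higher and 1.76% lower. At 1.5-fold, 1 gene was higher (Tcf7l2) and 1 lower (Tcf7), against 10.5% and 4.98% of tested genes. The interval left out 0 for 7 of the 10 genes, 4 above and 3 below, against 53.3% of tested genes. The median difference was 0.065 over the 10 genes and 0.013 over all tested genes, and the median size of the difference was 0.16 and 0.20. The tested genes average 10 or more counts and were not matched to the 10 genes, each of which had at least 652. Whether the 10 varied between the pools as much as genes of like count was not tested.

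Tcf7 differed most, with 2048 counts in replicate 1 and 1244 in replicate 2, a log2 difference of -0.92 (-1.02 to -0.81). The interval thus reaches past a 2-fold difference. Of all tested genes, 7.56% were at least as far apart. Tcf7l2 had 5621 and 9853 counts and a log2 difference of 0.61 (0.56 to 0.66), which 14.6% of tested genes matched or passed. Lef1 had 5688 and 4750 counts and a log2 difference of -0.46 (-0.51 to -0.40), matched or passed by 21.8%. The 3 Tcf/Lef genes that were furthest apart did not go the same way: Tcf7 and Lef1 were lower in replicate 2 and Tcf7l2 was higher.

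Ctnnb1, Lrp6 and Lrp5 were slightly higher in replicate 2, by 0.16 (0.14 to 0.18), 0.14 (0.072 to 0.20) and 0.17 (0.017 to 0.32) on the log2 scale. The intervals of Apc (0.085, -0.0020 to 0.17), Tcf7l1 (0.044, -0.037 to 0.13) and Nkd1 (0.030, -0.045 to 0.11) held 0. Axin2 had 805 and 811 counts and a difference of -0.19 (-0.33 to -0.044), yet its TPM was 1.03-fold higher in replicate 2, so its direction depends on the scaling. With spike-in counts as library size the median of all tested genes moved to 0.27 and the Axin2 difference became 0.066. Under that scaling the differences of Apc, Tcf7l1 and Nkd1 were 0.34, 0.30 and 0.28 with intervals above 0, and that of Ctnnb1 was 0.41. The directions of Tcf7, Lef1 and Tcf7l2 were the same under each scaling run.

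**Figure D3:**
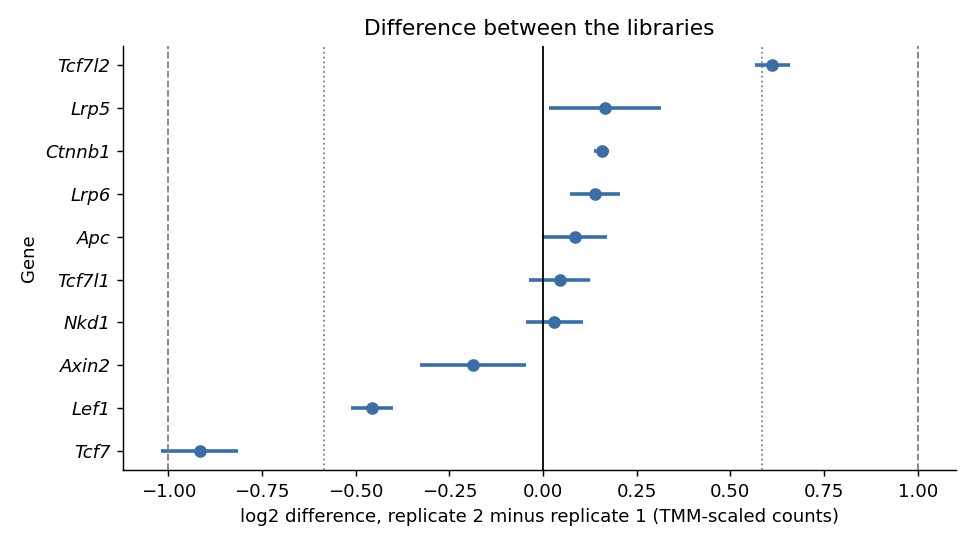
log2 difference of replicate 2 minus replicate 1 for each gene after TMM scaling, with exact binomial 95% counting intervals; dotted lines mark 1.5-fold and dashed lines 2-fold. Tcf7 (-0.92) and Lef1 (-0.46) lie on the left, Tcf7l2 (0.61) on the right, and the other 7 genes between -0.19 and 0.17.

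Markers of other cell types moved between the same libraries. Of the 11 ectoderm and ridge markers, 9 were lower in replicate 2 under TMM. Their median log2 difference was -0.26 over the 11, beside 0.013 over all tested genes, whose share that was lower was not counted. Of the 9, Wnt3 (-0.0028) and Cdh1 (-0.051) had intervals that held 0 and a higher TPM in replicate 2. Also among the 9 were Fgf8 of the ridge at a TPM of 88.5 and 65.9 and Wnt7a of the dorsal ectoderm at 7.03 and 4.11. Krt5 (16.2 and 34.0) and Krt14 (6.69 and 27.0) were higher. All 6 cartilage markers were higher in replicate 2, with a median of 0.85, for example Sox9 at 71.0 and 142 and Col2a1 at 60.6 and 158, while Acan was near 0 at 0.03 and 0.18. Of the 5 muscle precursor markers, 3 were higher and 2 lower in replicate 2. Myod1 was at 1.05 and 11.6 and Myog at 1.67 and 13.4, while Lbx1 was at 5.27 and 3.28 and Pax3 at 10.5 and 9.69. With spike-in counts as library size each of these log2 differences is 0.25 higher, so the count of lower ectoderm markers depends on the scaling. The part of these cell types in the differences of Tcf7, Lef1 and Tcf7l2 was not tested.

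The rest of the pathway was examined with a list of 76 genes in 6 groups, 74 of them outside the 10, since Tcf7 and Lef1 stand again among the targets. Of the 76, 72 (94.7%) were expressed, beside 55.2% of 21474 protein-coding genes. The list was written with earlier results of these data known. Between the libraries, 2 of the 76 were 2-fold higher in replicate 2 (Apc2 and Hic1) and 0 were 2-fold lower, beside 4.6% and 1.76% of all tested genes. At 1.5-fold 3 were higher and 4 lower, beside 10.5% and 4.98%.

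Genes of the destruction complex and its kinases were led by the casein kinase 1 genes, Csnk1a1 at a TPM of 215 ± 7.10 (SD, n = 2), Csnk1e at 132 ± 12.3 and Csnk1d at 110 ± 6.24. Apc2 was the lowest of the 14, at 1.59 ± 1.21, with a log2 difference of 1.94. Among the corepressors, Ctbp1 (308 ± 23.3), Hdac1 (270.2 ± 18.2) and Aes (261 ± 43.7) were the highest. Aes encodes a short Groucho-related protein. Hic1 was the lowest of those 11, at 0.83 and 2.95, with a log2 difference of 1.46.

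Nuclear partners of beta-catenin were all 15 expressed, beside 55.2% of protein-coding genes. The highest were the chromatin remodeller Smarca4 (142 ± 2.18, SD, n = 2), Tbl1x (65.7 ± 4.84) and Ctnnbip1 (59.9 ± 6.70), whose product blocks the binding of beta-catenin to Tcf proteins. Bcl9l was the lowest, at 5.30 ± 0.997. In the receptor-proximal group Mesd (86.4 ± 0.693), Dvl2 (56.8 ± 3.42) and Dvl3 (25.3 ± 3.69) led the 13 genes and Lgr6 was at 0.47 and 0.63. Of the adhesion partners, Ctnna1 (154 ± 13.9), Cdh11 (96.2 ± 23.7) and Cdh2 (41.7 ± 2.64) were the highest, and the epithelial cadherin gene Cdh1 was the lowest of the 6, at 13.3 ± 0.629.

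The group of feedback and target genes was headed by Id2 (232 ± 25.0, SD, n = 2), Mycn (165 ± 51.1) and Ccnd1 (129 ± 4.49), and T, the brachyury gene, was at 1.03 and 0.78. Under TMM 15 of these 20 genes were lower in replicate 2, with a median log2 difference of -0.24, beside 0.013 over all tested genes. The share of all tested genes that were lower was not counted. The medians of the other 5 groups lay between -0.025 and 0.086. Intervals of Cd44, Rnf43 and T, counted as lower, held 0. With spike-in counts as library size each difference is 0.25 higher, so the count of lower genes depends on the scaling. At 1.5-fold under TMM, 4 of the 20 were lower and 0 higher, where 4.98% and 10.5% of all tested genes were. These were Tcf7, Mycn (201 and 129 TPM, -0.78), Myc (49.5 and 36.4 TPM, -0.59) and Apcdd1 (4.10 and 2.29 TPM, -0.98), of which the last 2 were named after their values were seen. Fgf8 and Sp8 belong both to this group and to the ectoderm markers, so the lists are not separate measurements.

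**Figure D4:**
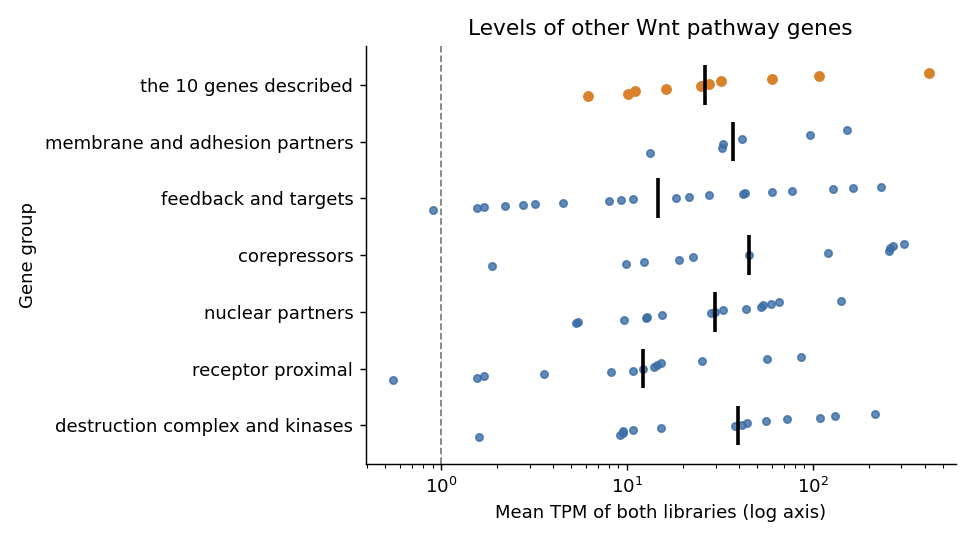
Mean TPM over both libraries (log axis) of each gene in the 6 pathway groups and of the 10 genes described, with a black line at each group's median and a dashed line at a TPM of 1. The medians run from 12.1 in the receptor-proximal group to 45.6 among the corepressors, beside 26.3 for the 10 genes.

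Transcripts of the Tcf/Lef genes were examined because short forms that start downstream lack the beta-catenin binding part. A transcript was called long where its coding sequence began at the start codon of the gene's longest coding sequence, short where it began downstream, and noncoding where the annotation gives it none. The 4 genes had 35 transcripts in the tables. For 30 of these the deposited length equalled that in the annotation release used for structure, and all 5 that differed belong to Tcf7l2. All 4 genes had the same leading transcript in both libraries, as did 91.7% of 9098 expressed genes with 2 or more transcripts.

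Long transcripts of Lef1, Tcf7l1 and Tcf7l2 differ inside the gene by short exons, among other parts. Chosen exons are shown here 5′ to 3′ on the gene's strand from GENCODE M21. The noncoding transcripts, some of which retain introns, were not compared in this way. In the Lef1 exon of 41 bases, capitals mark the stop codon. In the 2 Tcf7l2 exons of 73 bases, capitals mark the bases that both exons share.
Lef1 exon of 84 bases, chr3:131191023-131191106: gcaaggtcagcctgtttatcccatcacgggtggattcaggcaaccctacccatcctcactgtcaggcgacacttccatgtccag
Lef1 exon of 41 bases, chr3:131204933-131204973: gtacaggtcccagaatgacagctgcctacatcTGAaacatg
Tcf7l1 exon of 42 bases, chr6:72648801-72648842: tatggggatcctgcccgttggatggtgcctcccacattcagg
Tcf7l2 exon of 69 bases, chr19:55755014-55755082: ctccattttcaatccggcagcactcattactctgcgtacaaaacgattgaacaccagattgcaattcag
Tcf7l2 exon of 51 bases, chr19:55924530-55924580: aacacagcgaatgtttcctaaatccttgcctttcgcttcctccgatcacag
Tcf7l2 first 73-base exon, chr19:55925977-55926049: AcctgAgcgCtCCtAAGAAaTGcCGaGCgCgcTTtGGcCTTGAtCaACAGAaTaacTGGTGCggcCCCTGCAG
Tcf7l2 second 73-base exon, chr19:55926684-55926756: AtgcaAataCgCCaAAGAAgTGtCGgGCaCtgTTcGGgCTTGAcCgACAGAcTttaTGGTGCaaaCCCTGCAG
Tcf7l2 exon of 25 bases, chr19:55927730-55927754: tctttgaatttggaatattatgatg

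Lef1 transcripts were long in 92.0% and 93.5% of the gene's TPM. The short coding transcript Lef1-203, which starts inside the gene at chr3:131112797, was listed at a TPM of 0 in both libraries, with upper interval bounds of 0.235 and 0.223. A transcript with a retained intron and no coding sequence, Lef1-206, starts at the same base and was at 5.02 and 3.02, or 7.51% and 5.67% of the gene. Whether its reads come from RNA that begins there or from unspliced RNA of the longer transcripts was not tested.

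Lef1-202 led with 58.2% and 50.6% of the gene's TPM, and Lef1-204 followed with 32.1% and 40.9%. They differ by the 41-base exon: with it the coding sequence ends at the stop codon in capitals, and without it the frame runs on into the last exon. Long transcripts that held this exon made up 65.1% of the long TPM in replicate 1 and 56.3% in replicate 2. The TPM of Lef1-204 was 21.5 and 21.8, whereas that of Lef1-202 was 38.9 and 26.9 with intervals that did not overlap (32.6 to 42.9 and 21.6 to 30.1). The lower Lef1 level of replicate 2 thus lay in Lef1-202 and, to a smaller extent, in Lef1-206. The 84-base exon was held by 1.84% and 2.23% of the long TPM.

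Tcf7 had 2 transcripts in the tables, Tcf7-201 at 77.6% and 74.5% and Tcf7-202 at 22.4% and 25.5% of the gene's TPM. Both carry the same annotated coding sequence of 909 bases, so by the rule 100% of the gene counts as long. This does not measure the long Tcf7 protein form. In Tcf7-202 none of the 61 codons before the annotated start, up to the transcript's first base, is a stop codon. In the genome just before that base the same frame goes on without a stop codon, with an ATG, in capitals, 55 codons upstream of the transcript. The 250 bases before this start, also the window before a RefSeq start (GRCm38.p6), lie on the minus strand.
Tcf7 genomic window, chr11:52283015-52283264: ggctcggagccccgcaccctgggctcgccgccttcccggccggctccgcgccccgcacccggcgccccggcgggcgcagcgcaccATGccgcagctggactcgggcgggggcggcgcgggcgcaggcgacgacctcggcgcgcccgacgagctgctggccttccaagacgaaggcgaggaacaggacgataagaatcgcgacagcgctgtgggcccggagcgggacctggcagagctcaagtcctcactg

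From that ATG to the annotated start there are 116 codons, if no intron lies between the window and the transcript. Neither transcript in the tables covers the window, so the deposited shares do not say how much Tcf7 RNA in the limb begins there. The lower Tcf7 level in replicate 2 was seen in both transcripts, at a TPM of 27.0 and 15.3 for Tcf7-201 and 7.77 and 5.23 for Tcf7-202.

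Tcf7l1 was carried almost wholly by Tcf7l1-201, with 88.5% and 93.0% of the gene's TPM. Tcf7l1-202, which adds the 42-base exon in frame, was at 2.65 and 1.72, and the exon was held by 8.98% and 5.21% of the long TPM. The intervals of Tcf7l1-202 overlapped between the libraries. Long transcripts made up 97.2% and 98.2% and no short transcript is annotated.

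Tcf7l2 was the most divided of the 4 genes, with 22 transcripts in the tables. Long transcripts made up 66.7% and 65.2% of its TPM, short transcripts 0.325% and 0.765%, and transcripts with no coding sequence 33.0% and 34.0%. Most of the last were retained-intron models, led by Tcf7l2-206 at 12.5 and 22.8 TPM. The leading transcript Tcf7l2-209 was at 32.2 and 49.9 TPM, or 40.2% and 36.8% of the gene. The TPM of long and of noncoding transcripts was higher in replicate 2, at 53.4 and 88.6 for the long and 26.4 and 46.2 for the noncoding ones. Each of the 9 transcripts with 1% or more of the gene was higher in replicate 2, and the share of long transcripts moved by 1.48 percentage points.

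Most alternative exons of Tcf7l2 lie in its 3′ part, and are known to change the C-terminal tail of the protein. An in-frame exon of 69 bases near the 5′ end was held by 15.1% and 15.2% of the long TPM. The 51-base exon was held by 76.8% and 76.6% of the long TPM. The first 73-base exon was held by 85.3% and 84.9%. The second was held by 14.8% and 15.2%, all of it in Tcf7l2-222, which holds the first as well. The 2 exons share 47 of 73 bases (64.4%), position by position. The exon of 25 bases, inside which the coding sequence of Tcf7l2-209 ends at chr19:55927733, was held by 60.4% and 56.4% of the long TPM. The shares of the 25-base exon were thus 4.00 percentage points apart, and those of the other 4 exons at most 0.378 apart. Transcripts with equal lengths in both annotation releases carried 63.6% and 60.1% of the gene's TPM, so these exon shares rest in part on structures that changed between releases.

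**Figure D5:**
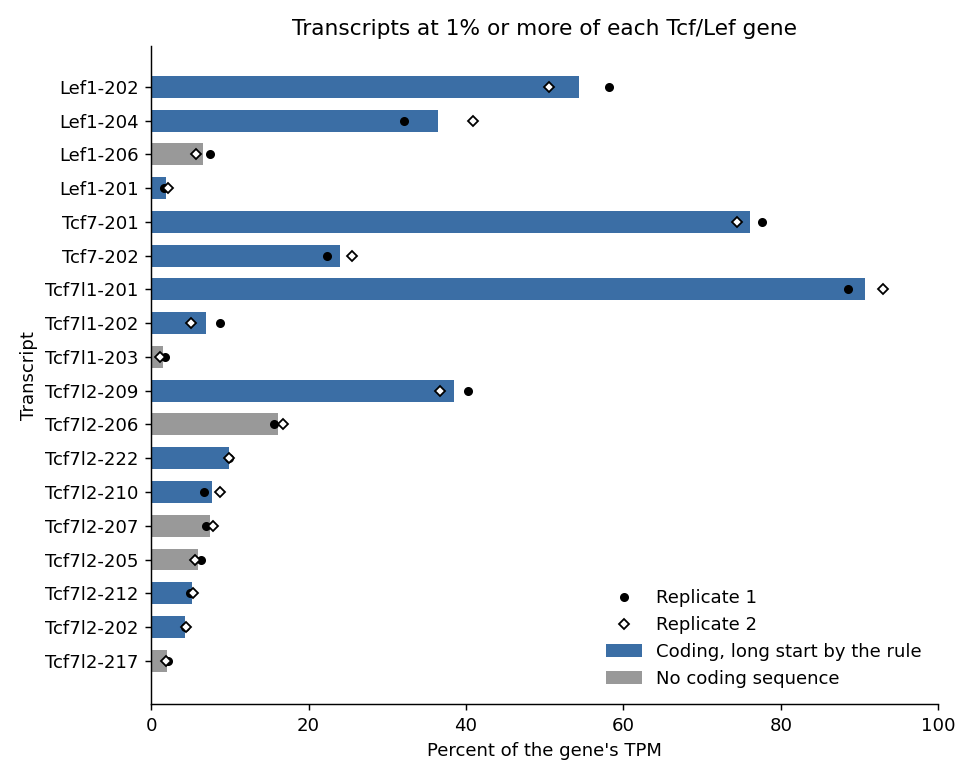
Percent of the gene's TPM in each Tcf/Lef transcript with a mean of 1% or more; bars are the mean of both libraries, circles replicate 1 and diamonds replicate 2, and grey bars have no coding sequence. Tcf7l1-201 carries 88.5% and 93.0% of its gene, whereas Tcf7l2-209 carries 40.2% and 36.8%.

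The remaining genes had the same leading transcript in both libraries as well. Ctnnb1-214 (59.2% and 54.7%) and Ctnnb1-201 (35.7% and 39.2%) carry the same coding sequence of 2343 bases in GENCODE M21. The deposited lengths of Ctnnb1-214 (3422 against 2702 bases) and Nkd1-201 (4314 against 3035) differ from M21, so their structure in the authors' annotation may differ too. Axin2-201 made up 50.8% and 47.0% of Axin2, and the noncoding Axin2-203 a further 24.8% and 23.1%. Apc-203 led Apc with 49.0% and 40.8%, Lrp5-201 led Lrp5 with 69.1% and 66.5%, Lrp6-201 led Lrp6 with 87.9% and 90.8%, and Nkd1-201 made up 100% and 99.3% of Nkd1.

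Whether counting used strand is not given in the sources used here, so reads of overlapping genes may be mixed. Gm37736, within Tcf7l1 on the same strand, had the most counts of any overlapping gene, 246 and 307 beside 2242 and 2651 for Tcf7l1. Ulk4, which overlaps Ctnnb1 on the opposite strand, had 199 and 237.

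The upstream sequences of the genes were searched for CTTTGA, a form of the core of the Tcf/Lef binding motif, on both strands. Its reverse complement is TCAAAG, and other forms of the core were not searched. The search covered RefSeq upstream windows of 250 bases on GRCm38.p6 for 7 of the 10 genes, in 13 windows. Apc, Lrp5 and Lrp6 were not covered, so the result does not speak to them. Of the 13 windows, 1 held the motif, while 13.8% of 32851 windows of the same length did. It lies before a RefSeq start inside Lef1, at chr3:131156294, where none of the 6 Lef1 transcripts of the tables begins. The window on the plus strand is shown with its 2 matches in capitals, both of the reverse complement.
Lef1 upstream window, chr3:131156044-131156293: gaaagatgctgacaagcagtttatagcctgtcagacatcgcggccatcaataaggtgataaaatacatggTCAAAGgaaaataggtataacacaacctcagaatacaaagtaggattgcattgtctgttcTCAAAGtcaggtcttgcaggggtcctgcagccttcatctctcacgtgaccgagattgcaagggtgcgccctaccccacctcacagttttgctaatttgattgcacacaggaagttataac

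A match is a stretch of letters and not a measured binding site, and a window with no match says only that these letters are not in it. Some windows without a match also lie before starts inside a gene. The only Nkd1 window lies before chr8:88527633, whereas the leading transcript Nkd1-201 begins at chr8:88521354. A Tcf7l2 window lies before chr19:55895321, inside that gene.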

How the data were processed

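Per the labels, RNA was extracted with mirVana. The authors' deposited tables give expected counts, TPM, a posterior mean TPM with interval bounds of unstated level, and, for each transcript, its percent of gene TPM, each library on its own. The bounds centre on the posterior mean, so a deposited TPM can lie outside them. Per the sample text files, quantification used mm10 and GENCODE M4. The sources used here do not name an aligner or quantifier. Effective length was length minus 99 nt.

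Names, coordinates and structures came from GENCODE M21 (GRCm38, the same assembly as mm10). Expected counts of genes were rounded and scaled with edgeR 4.0.16 (TMM, R 4.3.3). The 16860 genes averaging at least 10 counts were tested, and DESeq2 1.42.0 size factors were an alternative. Rows without Ensembl identifiers held 3.89% and 3.45% of counts and stayed out. Tables were handled with pandas 2.3.3 and numpy 2.4.6 in Python 3.11.15, intervals came from scipy 1.17.1 and figures from matplotlib 3.10.9. Interval code was checked on simulated data. Values are mean ± SD.

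The 10 genes, gene lists and pairs were chosen with earlier results of these data known. The rule for named genes took all 10, their pair partners and nearest genes. Of each pathway group it took the 3 highest, the lowest and any 2-fold gene. Of each marker list it took the 2 highest and the lowest, but not all of these were named. Msx1, Twist1, Krt18 and Myf5 were left out, as were all endothelial, blood, somite and macrophage markers. Other markers were named after their values were seen. The exons were chosen after seeing transcript shares. The 1.5-fold count under other scalings was added after seeing the data.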

Additional observations from a re-analysis of the deposited data

How the results depend on the processing

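The counts of expressed genes (10 of the 10 and 72 of the 76) and the count of 4 Tcf/Lef genes with the same leading transcript stayed within 1.5 times under each alternative run. Of 11 gene pairs, 8 were ordered alike, and 5 when a ratio of 2 or more was asked of both libraries. None of the 10 genes was 2-fold apart under TMM, or with DESeq2 size factors, spike-in counts or total gene counts as library size. Under each of these scalings 2 were 1.5-fold apart. With spike-in counts, 7.37% of all tested genes were 2-fold higher and 0.943% lower. At 1.5-fold these shares were 19.7% and 2.53%, beside 10.5% and 4.98% under TMM. Dropping the count filter could not change the counts of the 10 genes, as each had at least 652 counts. The median of all tested genes was 0.013 under TMM, 0.27 with spike-in counts and 0.12 for the difference of log2(TPM + 1). The Axin2 difference of -0.19 reversed to 0.066 with spike-in counts and to 0.035 for log2(TPM + 1). The share of long transcripts by expected counts, which are not corrected for length, was 95.2% for Lef1, 99.6% for Tcf7l1 and 82.7% for Tcf7l2, beside 92.7%, 97.7% and 65.9% by TPM. By posterior mean TPM it was 96.4% for Tcf7l1 and 64.6% for Tcf7l2, where the cause was not tested. Rescaling TPM over Ensembl rows outside the mitochondrial genome moved 3 of 10 levels by more than their SD, and posterior mean TPM moved 1. No paired analysis was possible because there is 1 group. Counting intervals do not cover differences between pools, and with 2 libraries each SD rests on 2 values.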
